A study of Mus musculus with 16 samples.

Results

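The 10 genes described here take up, bind and process fatty acids and lipoproteins: Lpl, Gpihbp1, Angptl4, Cd36, Slc27a3, Fabp4, Fabp5, Pparg, Lipa and Apoe. They were chosen by symbol for this role, with earlier results of these data known. All 10 were found among the 38926 gene names of the mpEC and bmEC libraries, the 38926 of the Lats2 libraries and the 21603 Ensembl identifiers of the Yap1/Taz libraries. RNA-seq data were available for 16 libraries of endothelial cells (ECs) sorted by FACS from bone of C57BL/6 mice. Metaphyseal ECs (mpECs) and ECs of the diaphyseal bone marrow cavity (bmECs), 3 libraries each, came from mice labelled wild type, which carried a Cdh5-mT/nG reporter and were 3 weeks old. A second set held 3 libraries labelled Yap1/Taz iΔEC (Yap1 flx/flx, Wwtr1 flx/flx, Cdh5CreERT2 positive) and 3 Cre-negative controls with the same floxed alleles, all at postnatal day 21. The last set held 2 Lats2 iΔEC libraries (Lats2 flx/flx, Cdh5CreERT2 positive) and 2 Cre-negative controls with the same floxed alleles, also 3 weeks old. The Cre recombinase is expressed from the EC promoter of Cdh5 and is activated by tamoxifen, which was given to pups. The methods describe the replicates as biological triplicates, although the Lats2 groups hold 2 libraries each, and the labels do not say whether the libraries of a group came from separate mice. P-values measure the spread between these libraries.

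In capillaries, lipoprotein lipase releases fatty acids from triglyceride-rich lipoproteins at the luminal surface of ECs. GPIHBP1 carries the enzyme across ECs and anchors it there, and ANGPTL4 inhibits it. The released fatty acids are taken up with the help of CD36 and of transport proteins of the SLC27 family, are bound inside the cell by FABP4 and FABP5, and act as ligands of the nuclear receptor PPARγ, whose known targets include Fabp4, Cd36, Lpl and Angptl4. Lysosomal acid lipase, the product of Lipa, hydrolyses lipids that enter with lipoproteins, and apolipoprotein E is a ligand of lipoprotein receptors.

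Values are FPKM, that is, fragments scaled to gene length and to the size of the library, as deposited. The reads recovered from them numbered 11122417 to 14756144 per library for mpECs and bmECs, 4889945 to 7162965 for the Yap1/Taz set and 4732694 to 7074017 for the Lats2 set. Fabp4 received the most of these, with 13199 to 567326 reads per library, and Slc27a3 the fewest, with 10 to 161. Each set was scaled separately, so values were tested within a set only. A gene was called where limma, on log2(FPKM + 1), gave a Benjamini-Hochberg adjusted p under 0.05 over all genes whose mean reached 1 FPKM, a filter that all 10 genes passed in every comparison. Log2 differences are given on this scale with their standard error (±), and other values with the standard deviation (SD). All 12 endothelial markers examined, among them Cdh5, Pecam1 and Emcn, had a group mean above 1 FPKM in each group. Blood cell RNA was also present, with summed FPKM of 8 erythroid markers between 28267 and 60413 in mpECs and bmECs. In both Yap1/Taz groups no macrophage, erythroid, megakaryocyte, neutrophil or B cell marker had a mean under 1 FPKM, so this level does not measure purity. In the Yap1/Taz controls 11 macrophage markers summed to 1243.9 to 1710.6 FPKM, and the 12 endothelial markers to 782.9 to 827.8 FPKM. In the libraries labelled Yap1/Taz iΔEC these sums were 1260.6 to 1383.2 and 992.7 to 1121.5 FPKM. In the libraries labelled Yap1/Taz iΔEC neither targeted gene was called lower than in the controls. Wwtr1, which encodes Taz, was at 15.3, 19.6 and 19.5 FPKM against 10.01, 9.88 and 10.3 FPKM (log2 difference 0.78 ± 0.12, adjusted p = 0.0272). Yap1 was at 1.43, 1.03 and 0.989 FPKM against 1.07, 1.62 and 0.995 FPKM (adjusted p = 0.934). These libraries are therefore named by their label throughout, and the direction of every difference drawn from them rests on the labels, since whether a library and its label match was not tested. Lats2 was at 19.2 FPKM in both Lats2 iΔEC libraries and at 23.4 and 24.0 FPKM in the controls (log2 difference -0.29 ± 0.11, adjusted p = 0.125). A gene-level value need not fall when floxed exons are removed, which holds alike for Lats2, Yap1 and Wwtr1. Values per exon were not examined, so whether this bears on either set was not tested.

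By the GENCODE M21 annotation (GRCm38), none of the 10 genes shares exon bases with another annotated gene. Fabp5 (chr3:10012548-10016607, plus strand) and Fabp4 (chr3:10204088-10208576, minus strand) are neighbours in a cluster of fatty acid binding protein genes. The others are Slc27a3 (chr3:90385239-90389938, minus), Cd36 (chr5:17781690-17888801, minus), Pparg (chr6:115360951-115490399, plus), Apoe (chr7:19696109-19699188, minus), Lpl (chr8:68880491-68907448, plus), Gpihbp1 (chr15:75596628-75599481, plus), Angptl4 (chr17:33773750-33781830, minus) and Lipa (chr19:34492318-34527474, minus). Fabp5 has a processed pseudogene, Fabp5l2, with which its reads could be exchanged.

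RefSeq promoter sequence (GRCm38.p6) was held for 5 of the 10 genes, namely Cd36, Pparg, Apoe, Lipa and Slc27a3. The 250 bases before a start that touch no annotated exon are shown because the first 3 of these genes were higher in bmECs and the last 2 lower. For Pparg the start is that of the transcript Pparg-201, and for Apoe the most upstream of its starts. The Cd36 start matched no GENCODE transcript of Cd36. The Cd36 and Pparg windows shown lie within the span of their genes. Both other Pparg windows lie further upstream, touch annotated exons and are not shown. Capitals mark matches to the motifs searched on both strands, which were AGGTCA (the core hexamer of nuclear receptor sites), the PPAR response element (2 copies of AGGTCA with 1 base between them, so that each such element also counts as a hexamer), ACGTG (the core of the hypoxia response element) and GGAATG (the binding motif of TEAD factors, the DNA-binding partners of Yap1 and Taz).

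Cd36, chr5:17835897-17836146, minus strand: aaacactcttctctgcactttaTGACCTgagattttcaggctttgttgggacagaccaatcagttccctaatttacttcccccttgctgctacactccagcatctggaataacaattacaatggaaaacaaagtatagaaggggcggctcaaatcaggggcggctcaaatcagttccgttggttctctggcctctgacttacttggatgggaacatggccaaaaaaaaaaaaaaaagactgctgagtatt
Pparg, chr6:115421816-115422065, plus strand: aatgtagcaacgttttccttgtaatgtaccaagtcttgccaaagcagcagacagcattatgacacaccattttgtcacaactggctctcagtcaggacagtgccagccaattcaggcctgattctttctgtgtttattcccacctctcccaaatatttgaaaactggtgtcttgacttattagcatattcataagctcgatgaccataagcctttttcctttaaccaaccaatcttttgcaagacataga
Apoe, chr7:19699189-19699438, minus strand: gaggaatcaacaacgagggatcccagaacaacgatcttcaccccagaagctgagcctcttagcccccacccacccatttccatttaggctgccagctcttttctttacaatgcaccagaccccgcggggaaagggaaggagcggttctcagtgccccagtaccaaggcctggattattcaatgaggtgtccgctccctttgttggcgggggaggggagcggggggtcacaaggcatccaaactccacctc
Lipa, chr19:34527475-34527724, minus strand: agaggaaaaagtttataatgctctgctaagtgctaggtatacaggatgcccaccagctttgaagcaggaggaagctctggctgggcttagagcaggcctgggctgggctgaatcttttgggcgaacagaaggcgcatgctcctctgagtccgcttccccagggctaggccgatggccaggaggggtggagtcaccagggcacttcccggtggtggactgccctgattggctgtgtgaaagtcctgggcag
Slc27a3, chr3:90389939-90390188, minus strand: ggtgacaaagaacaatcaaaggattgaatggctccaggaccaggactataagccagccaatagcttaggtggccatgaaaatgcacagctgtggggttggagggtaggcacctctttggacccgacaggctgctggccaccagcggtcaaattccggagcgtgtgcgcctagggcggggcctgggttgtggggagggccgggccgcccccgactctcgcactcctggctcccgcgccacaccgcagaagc

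The single match in these 5 windows is an AGGTCA hexamer on the reverse strand of Cd36, 228 to 223 bases before the start. The hexamer occurs in 14.0% of all 32851 promoters of this length, ACGTG in 16.6%, GGAATG in 12.6% and the full PPAR element in 0.0335%. Of the 4 other windows of Pparg and Apoe in the table, both of Pparg held the hexamer and 1 of Apoe held GGAATG. The gene-level values do not distinguish between starts. A match is a description of the letters only.

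bmECs differed from mpECs in 8 of the 10 genes. Lpl, Cd36, Fabp4, Angptl4, Pparg and Apoe were higher in bmECs, by 2.88 to 4.19 times, and Slc27a3 and Lipa were lower. Gpihbp1 and Fabp5 were not called. Of all 11422 genes tested, 13.0% were called higher and 10.5% lower in bmECs, and the median log2 fold change was 1.53 over the 10 genes and 0.00 over all genes. Because the 10 genes were chosen with earlier results known, these shares and medians are a description and not a test of enrichment.

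**Figure D1:**
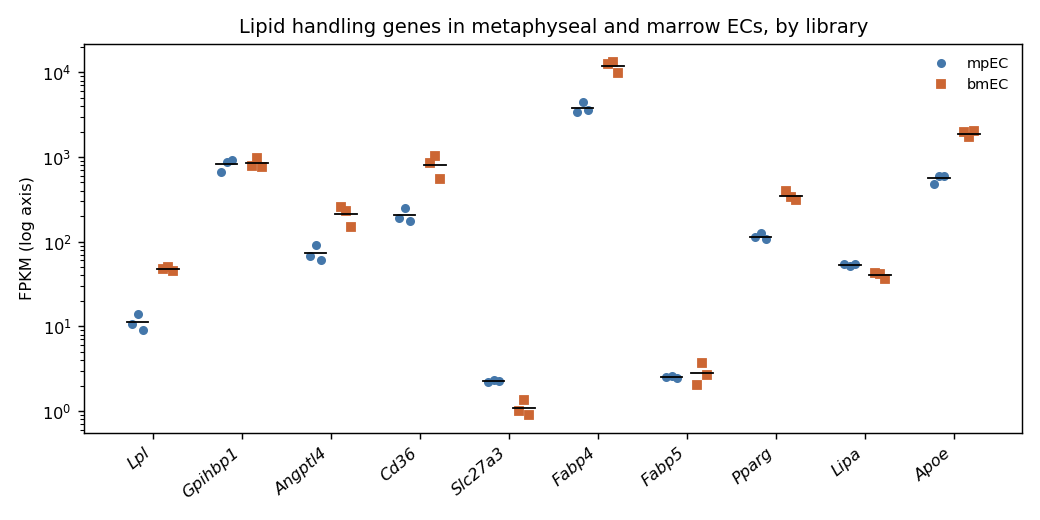
FPKM (log axis) of the 10 genes in each of the 3 mpEC libraries (circles) and the 3 bmEC libraries (squares), with a line at the group mean. The groups are apart for all genes but Gpihbp1 and Fabp5.

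Among the genes that act on lipoproteins at the vessel surface, Lpl, the lipase itself, was at 10.8, 13.8 and 9.15 FPKM in mpECs and at 47.0, 49.6 and 44.9 FPKM in bmECs. Every bmEC library was more than 3 times as high as any mpEC library (log2 difference 1.99 ± 0.14, adjusted p = 7.57e-05). Angptl4, which encodes the inhibitor, was at 68.5, 91.5 and 61.3 FPKM in mpECs and at 257.8, 230.2 and 148.5 FPKM in bmECs (log2 difference 1.49 ± 0.22, adjusted p = 0.00236). The lowest bmEC library was still above all mpEC libraries. Gpihbp1, the anchor, was at 673.5, 878.5 and 930.1 FPKM in mpECs and at 792.8, 970.5 and 755.9 FPKM in bmECs. These values overlap, and the log2 fold change of 0.03 had an SE of 0.15 (adjusted p = 0.921). The ratio of Gpihbp1 to Lpl within a library, which does not depend on the library's scaling, was 62.4 to 101.7 in mpECs and 16.8 to 19.6 in bmECs. With 3 against 3 libraries an exact permutation test of such a ratio cannot give a two-sided p below 0.10, so the ratios are given as a description.

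Of the genes for uptake, Cd36 was at 192.5, 253.0 and 177.7 FPKM in mpECs and at 847.1, 1021.7 and 549.2 FPKM in bmECs (log2 difference 1.92 ± 0.23, adjusted p = 0.000861). The bmEC libraries spread widely, but the lowest of them lay above the highest mpEC library. Slc27a3, an acyl-CoA synthetase of the fatty acid transport protein family, was lower in bmECs, at 0.993, 1.36 and 0.893 FPKM against 2.17, 2.34 and 2.29 FPKM (log2 difference -0.66 ± 0.14, adjusted p = 0.0105). Its values rest on few reads, 21 to 69 per library.

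Fabp4 had the highest level of the 10 genes in both groups. It held 0.725% to 1.08% of all FPKM in mpECs and 2.22% to 2.70% in bmECs, and only 8 genes had a higher mean in mpECs and 3 in bmECs. In FPKM it was at 3378, 4427 and 3627 in mpECs and at 12593, 13362 and 9909 in bmECs (log2 difference 1.65, adjusted p = 0.000348). Its relative Fabp5 was lower by 3 orders of magnitude, at 2.54, 2.61 and 2.42 FPKM in mpECs and at 2.04, 3.73 and 2.67 FPKM in bmECs (log2 difference 0.09 ± 0.17, adjusted p = 0.74). The 2 binding proteins thus parted, with Fabp4 at 1329 to 1694 times the level of Fabp5 in mpECs and at 3578 to 6161 times in bmECs.

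Pparg, the nuclear receptor, was at 112.3, 125.8 and 106.9 FPKM in mpECs and at 392.5, 332.8 and 312.0 FPKM in bmECs (log2 difference 1.58 ± 0.11, adjusted p = 7.57e-05). Apoe was at 486.1, 591.5 and 596.4 FPKM in mpECs and at 1948, 1709 and 2020.2 FPKM in bmECs (log2 difference 1.76 ± 0.12, adjusted p = 6.56e-05). Both were about 3 times as high in bmECs, with narrow groups. Lipa moved the other way, from 54.4, 52.3 and 54.2 FPKM in mpECs to 42.1, 41.3 and 36.7 FPKM in bmECs (log2 difference -0.41 ± 0.08, adjusted p = 0.00881). Within a library, Apoe was 8.93 to 11.3 times as high as Lipa in mpECs and 41.4 to 55.0 times in bmECs.

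The groups did not overlap for 8 of the 10 genes, as for 41.3% of all genes tested. No library decided a call: 8 genes were called when any 1 of the 6 libraries was left out, 6 higher and 2 lower.

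Since fewer cells of a type and less RNA per cell cannot be told apart in bulk samples, markers of other cells were read beside these values. Several of the 10 genes are also adipocyte genes. The summed FPKM of 8 adipocyte markers was 7.16 to 11.8 in mpECs and 60.4 to 158.2 in bmECs. Cfd, which encodes the adipokine adipsin, went up from 2.01 ± 1.65 to 80.2 ± 48.4 FPKM (SD, n = 3 each, adjusted p = 0.000386) and Adipoq, which encodes adiponectin, from 6.41 ± 2.44 to 19.3 ± 2.79 FPKM (adjusted p = 0.00278). Of the other markers, Lep, Retn and Pck1 were at 0 in all 6 libraries, Plin1 and Cidec were at 0 in mpECs and at means of 0.0607 and 0.0788 FPKM in bmECs, and Lipe was at 1.82 and 1.73 FPKM. For macrophages, which express Apoe and Lpl, the summed level of 10 markers was 143.8 to 189.3 FPKM in mpECs and 360.5 to 433.5 FPKM in bmECs. Of the 8 tested, whose median log2 fold change was 0.37, 1 was called. This was Mrc1, which sinusoidal ECs also express, at 98.8 ± 14.6 and 331.0 ± 27.2 FPKM (adjusted p = 7.57e-05). Cd163 and Timd4, too low to be tested, were at 0.384 ± 0.18 and 0.394 ± 0.27 FPKM in mpECs. In bmECs they were at 1.13 ± 0.23 and 1.05 ± 0.19 FPKM, whereas Cd68, Csf1r and Mpeg1 had lower means there. The complement gene C1qa, a defining macrophage marker, was at 6.89 ± 3.16 and 8.77 ± 1.85 FPKM (adjusted p = 0.372), and Csf1r at 2.83 ± 0.44 and 1.86 ± 0.80 FPKM. Of 4 stromal markers tested, Lepr was higher in bmECs, at 13.3 ± 1.64 against 2.95 ± 0.23 FPKM (adjusted p = 5.07e-05). Kitl was lower, at 10.6 ± 5.95 against 32.1 ± 7.17 FPKM (adjusted p = 0.00961), and the other 2 were not called. The sinusoidal endothelial gene Stab2 was also higher in bmECs, at 121.4 against 36.5 FPKM (adjusted p = 0.000229). Osteoblast markers moved the other way, with the summed FPKM of 8 at 246.9 to 975.3 in mpECs and 45.2 to 60.7 in bmECs, and 5 of 7 tested called lower in bmECs, among them Col1a1 at 0.583 ± 0.11 against 55.9 ± 32.3 FPKM (adjusted p = 0.000127). The 8 neutrophil markers summed to 11642 to 27821 FPKM in mpECs and 9465 to 13896 FPKM in bmECs. Limma called 0 of them, with 4 lower at an unadjusted p under 0.05 and 4 lower by limma-voom. Of 8 B cell markers Ebf1 alone was called, lower in bmECs at 5.24 against 8.92 FPKM (adjusted p = 0.0455). Erythroid and megakaryocyte markers had 0 calls, with median log2 fold changes of 0.41 and 0.27. The part of any of these cell types in the lipid genes was not tested.

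In the Lats2 comparison 7 of the 10 genes were called. Fabp5, Slc27a3, Lipa and Gpihbp1 were higher in Lats2 iΔEC libraries, by 1.79 to 6.30 times, and Apoe, Pparg and Lpl were lower. Fabp4, Cd36 and Angptl4 were not called. Of all 12453 genes tested, 11.8% were called higher and 9.98% lower. The median log2 fold change was -0.08 over the 10 genes and -0.00 over all genes. With 2 libraries a group these calls rest on both controls: when either control was left out, limma called 0 of the 10 genes and 0 of all genes, with 5 or 7 of the 10 and 2724 or 2879 of all genes at an unadjusted p under 0.05. With all 4 libraries, limma-voom fitted to recovered reads called 8. No called gene changed direction in any of these fits.

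**Figure D2:**
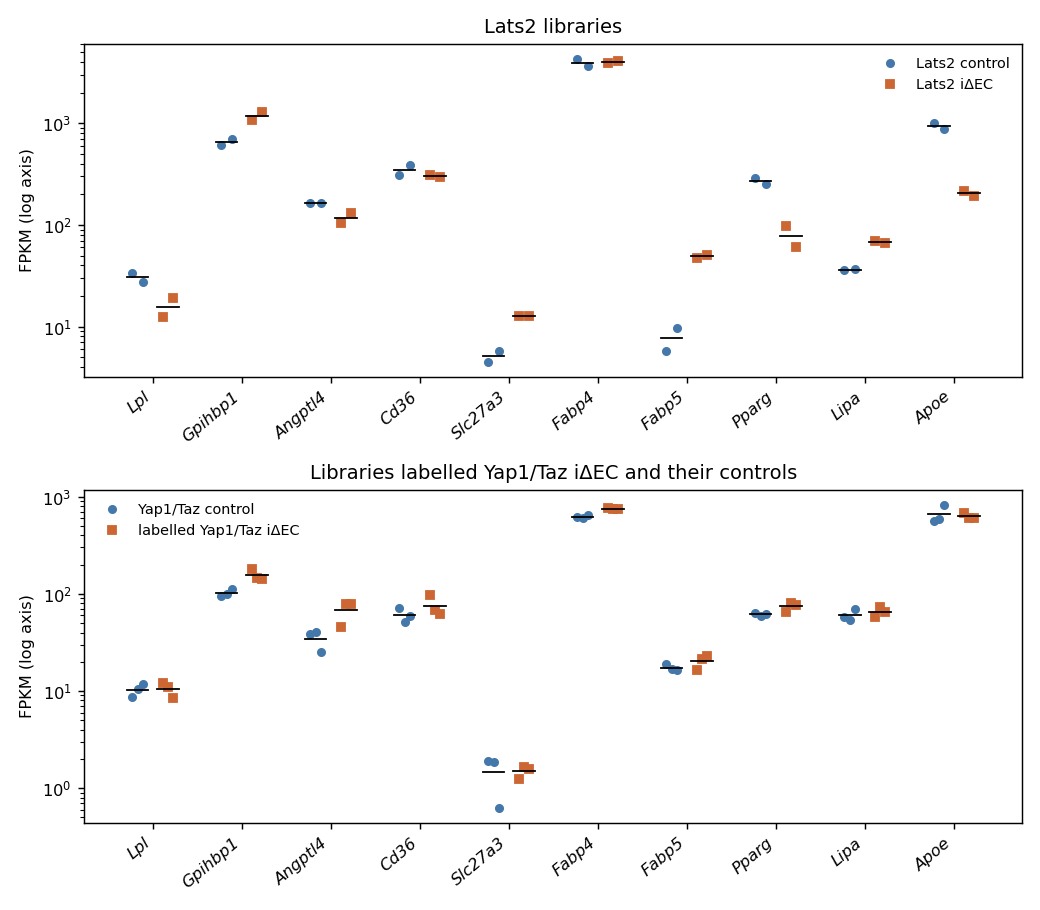
FPKM (log axis) of the 10 genes in each library of the Lats2 set (top) and of the set labelled Yap1/Taz iΔEC (bottom), with controls as circles, Cre-positive libraries as squares and a line at the group mean. In the Lats2 set Fabp5 lies far above and Apoe and Pparg far below the controls, whereas the groups lie close in the other set, with Gpihbp1 and Angptl4 highest above their controls.

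Gpihbp1 was at 1069.8 and 1278 FPKM in Lats2 iΔEC libraries and at 608.0 and 702.0 FPKM in controls (log2 difference 0.84 ± 0.17, adjusted p = 0.0274). Lpl was at 12.5 and 19.1 FPKM against 33.4 and 27.7 FPKM (log2 difference -0.93 ± 0.22, adjusted p = 0.0407). The call of Gpihbp1 was lost without the filter on low values, and that of Lpl without the filter, without the trend and relative to endothelial markers. The anchor and the enzyme thus moved apart, and their ratio within a library was 67.1 to 85.7 in Lats2 iΔEC libraries and 18.2 to 25.4 in controls. Angptl4 was at 104.9 and 129.7 FPKM against 164.8 and 162.5 FPKM, a log2 fold change of -0.49 with an SE of 0.14 (adjusted p = 0.0686).

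Cd36 was at 306.7 and 296.2 FPKM in Lats2 iΔEC libraries and at 310.1 and 387.2 FPKM in controls (log2 difference -0.20 ± 0.15, adjusted p = 0.387). Slc27a3 was at 12.8 and 12.6 FPKM against 4.54 and 5.82 FPKM (log2 difference 1.16 ± 0.16, adjusted p = 0.0132). The low-level synthetase was thus 2.45 times as high, while the abundant receptor differed by less than its spread between the controls.

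Fabp4 was at 3922 and 4122 FPKM in Lats2 iΔEC libraries and at 4266 and 3624 FPKM in controls (log2 difference 0.03 ± 0.19, adjusted p = 0.917). Fabp5 was at 47.5 and 50.9 FPKM against 5.80 and 9.80 FPKM (log2 difference 2.55 ± 0.24, adjusted p = 0.00808). Fabp5 had the largest change of the 10 genes in any of the 3 comparisons. Fabp4 exceeded Fabp5 by 369.7 to 735.1 times in controls and by 81.1 to 82.5 times in Lats2 iΔEC libraries.

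Pparg was at 96.5 and 60.4 FPKM in Lats2 iΔEC libraries and at 291.6 and 251.7 FPKM in controls (log2 difference -1.81 ± 0.24, adjusted p = 0.0128). Apoe was at 217.7 and 192.3 FPKM against 1011 and 879.6 FPKM (log2 difference -2.20 ± 0.15, adjusted p = 0.00654). Controls had 3.46 times the Pparg level and 4.61 times the Apoe level. Lipa was higher, at 69.1 and 66.2 FPKM against 36.1 and 36.7 FPKM (log2 difference 0.88 ± 0.11, adjusted p = 0.0115). Apoe exceeded Lipa by 23.9 to 28.0 times in controls and by 2.90 to 3.15 times in Lats2 iΔEC libraries.

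The groups did not overlap for 9 of the 10 genes, as for 68.2% of all genes tested. Neutrophil, erythroid and B cell markers were lower in sum in the Lats2 iΔEC libraries. The summed FPKM of 8 neutrophil markers was 717.1 to 855.2 against 1956 to 2925 in controls, that of 8 erythroid markers 244 to 1397 against 2441 to 3674, and that of 8 B cell markers 25.4 to 36.1 against 96.0 to 114.5. The 10 macrophage markers summed to 31.9 to 71.9 FPKM against 149.2 to 174.1 FPKM, of which Mrc1 took 18.8 ± 9.09 against 144.1 ± 10.2 FPKM (SD, n = 2 each, adjusted p = 0.00986), whereas C1qa was at 5.24 ± 3.04 against 1.19 ± 0.77 FPKM. Of the 6 macrophage markers tested, Mrc1 alone was called. At an unadjusted p under 0.05 limma had 3 higher and 1 lower, and the median log2 fold change of the 6 was 0.80. Cfd was lower as well, at 2.89 ± 2.06 against 19.4 ± 0.90 FPKM (adjusted p = 0.0152), and Lep, Retn and Plin1 were at 0 in all 4 libraries. Cfd was the single call of 3 adipocyte markers tested, with 2 lower at an unadjusted p under 0.05 by limma. Stromal markers went the other way in sum, at 99.2 to 104.8 against 56.6 to 68.4 FPKM. Of 6 tested, 1 was called higher, with 3 higher and 1 lower at an unadjusted p under 0.05. Megakaryocyte markers summed to 9.72 to 12.4 against 30.05 to 121 FPKM, with 1 of 7 called lower. Stab2 was at 19.9 against 151.2 FPKM (adjusted p = 0.0102). The part of these cells in the lipid genes was not tested.

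**Figure D3:**
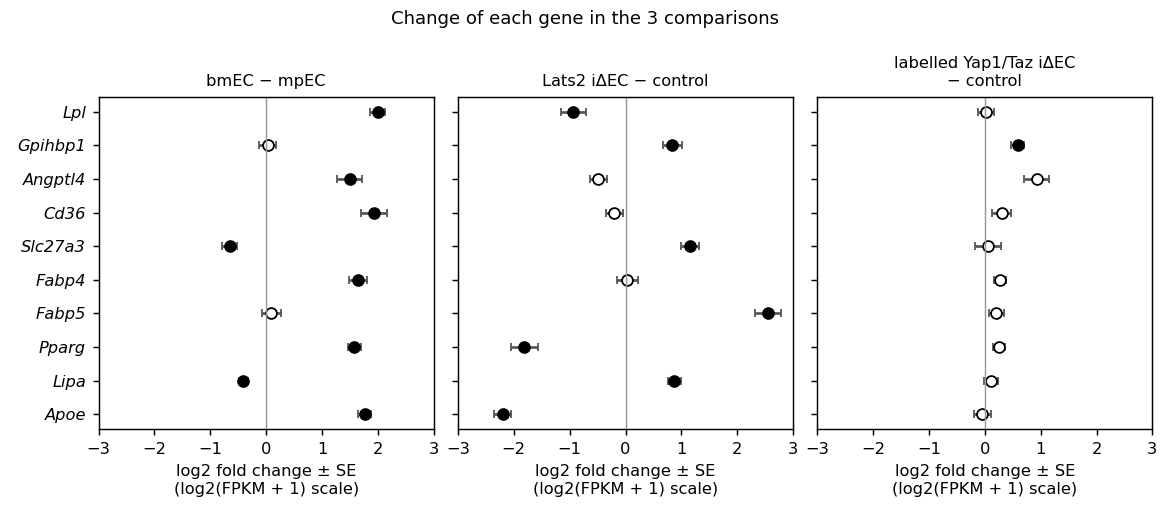
Log2 fold change with its SE (x axis, log2(FPKM + 1) scale) of the 10 genes in the 3 comparisons. Filled points have an adjusted p under 0.05, which 8, 7 and 1 genes reached from left to right.

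Apoe, Pparg, Lpl, Lipa and Slc27a3 were called both between bmECs and mpECs and in the Lats2 comparison, in opposite directions. These are 62.5% of the 8 and 71.4% of the 7 genes called. Over all 10471 genes tested in both, the shared calls were 38.4% of the bmEC calls and 41.05% of the Lats2 calls. The 2 comparisons share no library. The same held for most genes: of 972 genes called in both, 919, or 94.5%, had opposite directions, so the 5 genes did as the rest of the calls did. Fabp4, Cd36 and Angptl4 were called between bmECs and mpECs and not in the Lats2 comparison, and Fabp5 and Gpihbp1 in the Lats2 comparison and not between bmECs and mpECs. These differences between comparisons were not tested.

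In the libraries labelled Yap1/Taz iΔEC, 1 of the 10 genes was called. Of all 11320 genes tested, 0.883% were called higher and 0.424% lower, and the median log2 fold change was 0.23 over the 10 genes and -0.00 over all genes. Gpihbp1 was at 178.4, 146.3 and 143.1 FPKM in these libraries and at 95.5, 99.6 and 113.2 FPKM in controls (log2 difference 0.59 ± 0.12, adjusted p = 0.0443). The groups do not overlap, as in 4 of the 10 genes and 23.6% of all genes tested. The call was lost when any of the libraries was left out except the first labelled Yap1/Taz iΔEC library, with 0 of the 10 genes then called by limma and 2 to 4 at an unadjusted p under 0.05.

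Angptl4 was at 45.1, 79.0 and 78.3 FPKM in the libraries labelled Yap1/Taz iΔEC and at 38.7, 40.3 and 25.02 FPKM in controls (log2 difference 0.93 ± 0.23, adjusted p = 0.0782). The first library stood near the controls and the other two at about 79 FPKM. Without the first library, and with limma-voom on all 6, Angptl4 was called besides Gpihbp1. Lpl was at 12.2, 11.0 and 8.48 FPKM against 8.76, 10.5 and 11.7 FPKM (log2 difference 0.02 ± 0.15, adjusted p = 0.96).

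Fabp4 was at 766.2, 750.0 and 745.2 FPKM against 619.5, 608.9 and 645.9 FPKM in controls (log2 difference 0.27 ± 0.10, adjusted p = 0.2), and Pparg at 65.4, 80.4 and 76.6 FPKM against 64.2, 58.6 and 62.3 FPKM (log2 difference 0.26 ± 0.10, adjusted p = 0.234). For these genes the libraries of the groups did not overlap, without passing the test. Cd36 was at 97.5, 68.6 and 61.5 FPKM against 71.4, 51.6 and 59.1 FPKM (adjusted p = 0.398), and Fabp5 at 16.6, 21.6 and 22.8 FPKM against 19.1, 16.7 and 16.3 FPKM (adjusted p = 0.447). Both overlap between the groups. Apoe was at 684, 610 and 598.9 FPKM against 561.4, 595.4 and 814.8 FPKM (adjusted p = 0.921), Lipa at 57.1, 72.8 and 65.3 FPKM against 57.6, 53.3 and 69.2 FPKM (adjusted p = 0.681), and Slc27a3 at 1.25, 1.66 and 1.58 FPKM against 1.89, 1.87 and 0.629 FPKM (adjusted p = 0.919). Their groups overlap too. Endothelial markers summed to 992.7 to 1121.5 FPKM in the libraries labelled Yap1/Taz iΔEC and to 782.9 to 827.8 FPKM in controls. When values were set relative to these markers, the median of all genes shifted by -0.39, the log2 fold change of Gpihbp1 was 0.21 and 2 of the 10 genes were called, Angptl4 higher and Apoe lower. Macrophage markers were abundant in both groups, with C1qa at 393.2 ± 16.9 against 440.8 ± 81.7 FPKM (SD, n = 3 each, adjusted p = 0.618). Osteoblast markers were lower in the libraries labelled Yap1/Taz iΔEC, with 3 of 6 tested called and Col1a1 at 5.41 ± 4.26 against 20.9 ± 3.76 FPKM (adjusted p = 0.0388). For B cell markers limma called 0 of 8, with 7 lower at an unadjusted p under 0.05 and 1 by limma-voom. The part of these cells in the lipid genes was not tested.

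**Figure D4:**
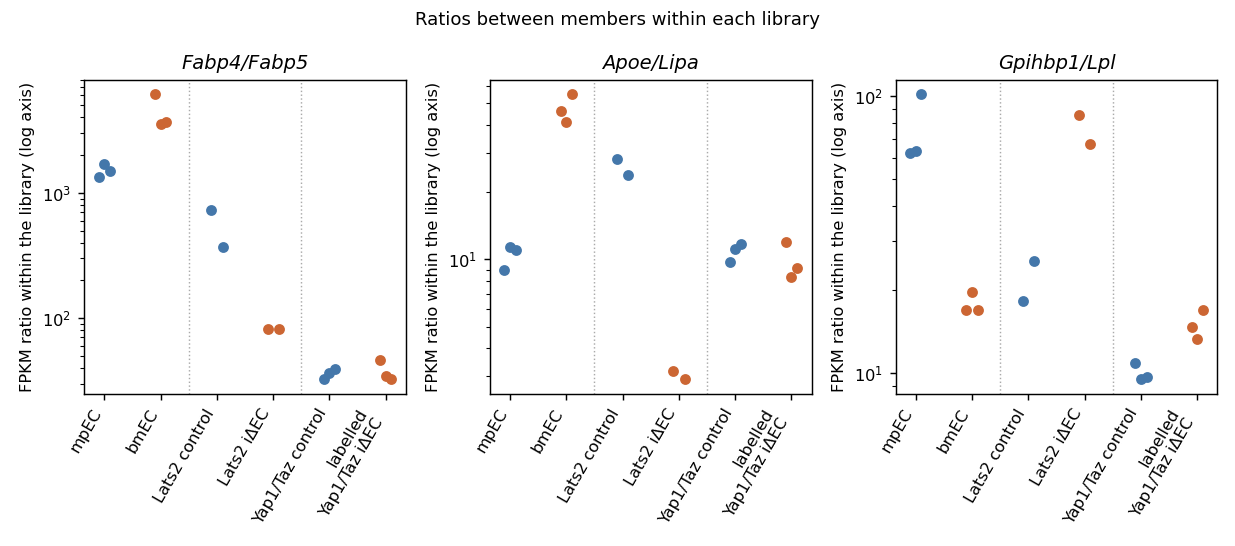
Ratio of FPKM between 2 genes within each library (log axis), with controls and mpECs in blue and the other groups in orange. Dotted lines part the 3 sets, which were scaled and counted separately. The groups are apart in the mpEC and bmEC set and in the Lats2 set for the 3 ratios shown, whereas the ratio of Fabp4 to Cd36, not plotted, overlapped between the groups of both sets.

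Per length, Fabp4 had the highest mean of the 10 genes in every group except the Yap1/Taz controls, where Apoe at 657.2 FPKM and Fabp4 at 624.8 FPKM overlapped. In mpECs the order was Fabp4, Gpihbp1, Apoe, Cd36, Pparg, Angptl4, Lipa, Lpl, Fabp5 and Slc27a3, with no overlap between neighbours. In bmECs Apoe took the second place and Lpl stood above Lipa, and Gpihbp1 and Cd36 overlapped. In Lats2 iΔEC libraries Gpihbp1, Cd36 and Apoe followed Fabp4 in this order, whereas in their controls Apoe was second. Slc27a3 was lowest in all 6 groups. The order, like the ratios between genes, depends on the gene lengths behind the FPKM values. The annotated exon bases were 4489 for Fabp4 and 10478 for Lpl.

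Across the 16 libraries, after each set was centred on its mean, the genes with patterns most like that of Fabp4 among 4947 genes were 1700025G04Rik, Actn1, Cd36, Slco2b1 and Fam49a (Pearson's r 0.946 to 0.963). For Cd36 they were Fam49a (0.954), Fabp4, Cnbp (0.922), Lmbrd1 (0.914) and Aaed1 (0.914). The patterns most like that of Gpihbp1 were those of the mitochondrial genes mt-Atp6 (0.917), mt-Nd3 (0.909) and mt-Nd2 (0.889) and of Anapc16 (0.899) and Arhgef12 (0.890). Within the 10 genes, r was 0.956 between Pparg and Apoe, -0.867 between Lipa and Apoe and 0.175 between Fabp4 and Gpihbp1. The libraries share groups and scaling, so these values describe the contrasts between groups more than single libraries.

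Other genes of lipid handling were taken from 6 lists, and called genes are named here, those under 5 FPKM or beyond the 3 largest changes after their values were seen.

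**Figure D5:**
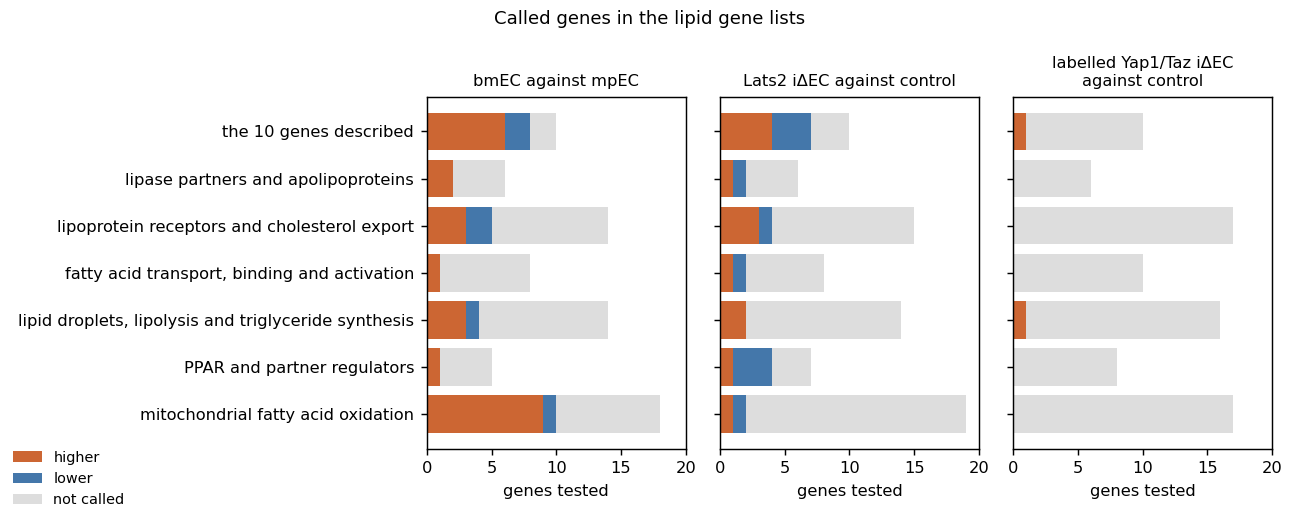
Number of genes tested (x axis) in the 10 genes described and in 6 other lists of lipid genes, split into genes called higher, called lower and not called at an adjusted p under 0.05. The 10 genes and the fatty acid oxidation list hold the most calls between bmECs and mpECs, and the set labelled Yap1/Taz iΔEC holds 1 call in each of 2 lists.

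Of the lipase partners and apolipoproteins, 6 of 20 were tested between bmECs and mpECs, and 2 were higher in bmECs, none lower. Lipg, the endothelial lipase, went up from 25.4 ± 9.83 to 116.0 ± 5.68 FPKM (log2 difference 2.21, adjusted p = 0.000383), and Pcsk6, a proprotein convertase that cleaves lipases, from 0.559 ± 0.13 to 2.28 ± 0.36 FPKM. In the Lats2 comparison the same 2 genes were called, with Lipg at 5.02 ± 1.32 against 33.1 ± 1.20 FPKM (log2 difference -2.52, adjusted p = 0.00684) and Pcsk6 higher at 11.7 ± 1.69 against 4.54 ± 1.01 FPKM. Limma called 0 of 6 in the libraries labelled Yap1/Taz iΔEC, with 2 at an unadjusted p under 0.05 and 0 by limma-voom.

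Of the lipoprotein receptors and genes of cholesterol export, 3 of 14 tested were higher and 2 lower in bmECs. Mylip, which encodes a ubiquitin ligase, went up from 36.5 ± 8.53 to 137.7 ± 12.3 FPKM (log2 difference 1.91, adjusted p = 0.000156), and Nr1h3, the liver X receptor that induces it, from 2.16 ± 0.24 to 7.15 ± 0.75 FPKM. The cholesterol-esterifying enzyme Soat1 was lower, at 8.02 ± 1.48 against 12.8 ± 0.76 FPKM (adjusted p = 0.0114), and the exporter Abca1 was higher at 8.60 ± 1.60 against 5.46 ± 0.90 FPKM, a call that held in 8 of 15 alternatives. With Lats2 iΔEC, Mylip was at 16.9 ± 2.42 against 90.3 ± 19.3 FPKM (log2 difference -2.34, adjusted p = 0.00734). Abca1 was higher there too, at 18.8 ± 1.77 against 11.9 ± 1.66 FPKM, which held in 6 of 13 alternatives. In all, 3 of 15 tested were higher and 1 lower. Limma called 0 of 17 in the libraries labelled Yap1/Taz iΔEC, with 4 at an unadjusted p under 0.05 and 1 by limma-voom.

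Of 8 tested genes of fatty acid transport, binding and activation, Slc27a1 was the single gene called between bmECs and mpECs, at 6.63 ± 1.79 against 1.68 ± 0.37 FPKM (log2 difference 1.49, adjusted p = 0.00123). For Lats2 iΔEC it was at 1.90 ± 0.27 against 12.7 ± 2.48 FPKM (log2 difference -2.23, adjusted p = 0.00758). It thus moved opposite to its relative Slc27a3 in each of the 2 comparisons. Dbi, the acyl-CoA binding protein, was higher in Lats2 iΔEC libraries at 74.6 ± 19.4 against 38.4 ± 0.65 FPKM. Limma called 0 of 10 in the libraries labelled Yap1/Taz iΔEC, with 1 at an unadjusted p under 0.05 and 0 by limma-voom.

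Of the genes of lipid droplets and lipolysis, 3 of 14 tested were higher and 1 lower in bmECs. The triglyceride lipase Pnpla2 was at 15.2 ± 0.12 against 8.22 ± 1.20 FPKM (log2 difference 0.82, adjusted p = 0.00152), the droplet coat Plin2 at 170.5 ± 25.9 against 109.2 ± 11.1 FPKM, and Lpin1 at 5.22 ± 0.66 against 2.78 ± 0.47 FPKM. G0s2, an inhibitor of Pnpla2, was lower at 17.3 ± 4.99 against 42.7 ± 12.3 FPKM (log2 difference -1.25, adjusted p = 0.00963). In Lats2 iΔEC libraries the monoglyceride lipase Mgll was higher at 135.1 ± 67.0 against 38.4 ± 0.03 FPKM and the droplet coat Plin3 at 52.1 ± 7.53 against 31.2 ± 2.66 FPKM, 2 of 14 tested. Dgat1, which makes triglyceride, was the single call of 16 in the libraries labelled Yap1/Taz iΔEC, at 29.6 ± 1.81 against 18.8 ± 1.66 FPKM (log2 difference 0.63, adjusted p = 0.0347), a call that held in 7 of 15 alternatives.

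Among the PPAR and partner regulators, Cebpa was called of 5 tested between bmECs and mpECs, at 2.37 ± 0.42 against 0.857 ± 0.21 FPKM (adjusted p = 0.00555). Of the other PPAR genes, Ppara was at or near 0 and Ppard under 1 FPKM in each of these 6 libraries. Between Lats2 iΔEC and control libraries, Cebpa was lower at 0.961 ± 0.06 against 3.80 ± 0.13 FPKM, Cebpb at 39.2 ± 7.40 against 83.0 ± 4.87 FPKM (adjusted p = 0.0155) and Rxra, the partner of PPARγ on DNA, at 12.9 ± 2.36 against 20.6 ± 0.79 FPKM (adjusted p = 0.044). Meox2, which with Tcf15 drives fatty acid uptake genes in heart capillaries, was higher at 16.3 ± 1.11 against 3.10 ± 1.24 FPKM (log2 difference 2.11, adjusted p = 0.0102). Limma called 0 of 8 in the libraries labelled Yap1/Taz iΔEC, with 2 at an unadjusted p under 0.05 and 1 by limma-voom.

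Mitochondrial fatty acid oxidation had 9 of 18 tested genes higher and 1 lower in bmECs, with changes smaller than those of Lpl and Cd36. Cpt2, the inner carnitine palmitoyltransferase, was at 42.0 ± 2.82 against 21.3 ± 3.44 FPKM (log2 difference 0.96, adjusted p = 0.00116). The other 8, Hadhb, Slc25a20, Acadm, Acadvl, Decr1, Eci1, Eci2 and Etfdh, had log2 differences of 0.33 to 0.49, and Acads was lower by a log2 fold change of -0.50. Of these 8, Acadvl alone was called whichever library was left out, and Etfdh was called in 6 of 15 alternatives, fewest of the 8. Cpt2 and Acads were called in all 15. The count of higher genes depended on the scaling, with 3 called by limma-voom and 1 when values were set relative to endothelial markers, settings under which the median of all genes shifted by -0.19 and -0.17. For Lats2, 1 of 19 was higher, Acads at 25.7 ± 1.05 against 16.04 ± 0.37 FPKM, and 1 lower, Cpt2 at 17.9 ± 1.38 against 28.4 ± 4.11 FPKM. Limma called 0 of 17 in the libraries labelled Yap1/Taz iΔEC, with 4 at an unadjusted p under 0.05 and 0 by limma-voom.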

How the data were processed

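The authors sorted ECs by FACS, made libraries with a stranded total RNA kit, used TopHat for mapping to GRCm38 (mm10) and HTSeq (version 0.6.1) for counting, per the labels, and used DESeq2 for their own tests. They deposited FPKM values, and the step from counts to FPKM and the strand setting are not given in the sources used here. Ensembl identifiers of the Yap1/Taz lists were paired with symbols for 21375 of 21603.

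The 10 genes, the gene lists and the tests were chosen with earlier results of these data known. From the FPKM values, log2(FPKM + 1) was fitted with limma (version 3.58.1, R 4.3.3) with 1 term for the group and a trended moderation, over genes whose mean reached 1 FPKM. This scale understates changes of low genes. P-values are two-sided. All 10 genes are named. From each other list, the up to 3 genes with the largest change in each direction among called genes of at least 5 FPKM were named, and other called genes were added after their values were seen. Some genes counted in the lists are not reported here by name. Reads were recovered with GENCODE M21 lengths, and 62.5% to 70.1% of values up to 20 reads lay within 0.02 of a whole read, where chance gives 4%. No 2 replicates agreed within sampling noise (chi-square per degree of freedom at least 3.23). The procedure was tested on simulated data with 200 genes changed by a log2 of 1 or 2. It recovered 92.5%, 95.5% and 48.0% of them in the bmEC, Yap1/Taz and Lats2 comparisons. For Lats2 it recovered 33.7% of those changed by a log2 of 1, so genes not called there may still differ. Tables and plots were made in Python 3.11.15 (pandas 2.3.3, matplotlib 3.10.9). A pseudocount of 0.1, other filters and scalings, a replicate block, limma-voom and leaving out each library were the alternatives.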

Additional observations from a re-analysis of the deposited data

How the results depend on the processing

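Between bmECs and mpECs, 8 of the 10 genes were called under all alternatives except a filter at 5 FPKM, which removes Slc27a3 and Fabp5 and left 7, and the threshold of the study's methods (adjusted p under 0.01 and a log2 change over 0.5), which left 6. Setting values relative to endothelial markers moved the median of all genes by -0.17, -0.39 and 0.37 in the bmEC, Yap1/Taz and Lats2 comparisons, and limma-voom by -0.19, -0.06 and -0.14. All-gene calls, 1481 higher and 1201 lower in bmECs, then became 646 and 1366 or 891 and 2414. For Lats2, 1468 and 1243 became 3080 and 579 or 1271 and 2039, and for the libraries labelled Yap1/Taz iΔEC, 100 and 48 became 74 and 5873 or 205 and 152. The 12 endothelial markers differed themselves, with 5 called higher and 3 lower in bmECs. For Lats2, 1 was called higher and 3 lower, and 1 was called higher in the libraries labelled Yap1/Taz iΔEC. The sinusoidal gene Stab2 is among them, and the setting also takes up their own differences.

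In the Lats2 comparison the count of genes called was 7. It was 5 without a filter (Lpl and Gpihbp1 lost), 6 with endothelial centring or without the trend (Lpl lost), 8 with quantile normalization or limma-voom (Angptl4 added), 2 at the stricter threshold and 0 to 6 when a library was left out. In the libraries labelled Yap1/Taz iΔEC it was 1, 0 without a filter, with quantile normalization, without the trend and at the stricter threshold, 2 with limma-voom or endothelial centring, and 0 to 2 when a library was left out. The cause was not tested.

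Replicate numbers recur between groups. Deviations of libraries with the same number correlated at 0.307, 0.0876 and 0.102 for bmECs and mpECs, at -0.175, -0.123 and -0.155 for Yap1/Taz and at 0.0651 for Lats2, and not every library correlated best with its own number, so the numbers were not taken as pairs. With the replicate block, 8, 0 and 7 of the 10 genes were called in the bmEC, Yap1/Taz and Lats2 comparisons.

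Genes that were not called changed sign in some settings. Relative to endothelial markers the log2 fold change was -0.084 for Fabp5 and -0.15 for Gpihbp1 between bmECs and mpECs, 0.17 for Cd36 and 0.078 for Lats2 itself in the Lats2 comparison, and in the libraries labelled Yap1/Taz iΔEC -0.084 for Cd36, -0.12 for Fabp4, -0.18 for Fabp5, -0.27 for Lipa, -0.36 for Lpl, -0.13 for Pparg and -0.32 for Slc27a3. With limma-voom it was -0.07 for Fabp5 and -0.17 for Gpihbp1 in bmECs, -0.038 for Lpl in the libraries labelled Yap1/Taz iΔEC and -0.10 for Fabp4 in the Lats2 comparison, and with quantile normalization -0.24 for Gpihbp1 in bmECs and -0.71 for Fabp4 in the Lats2 comparison. With a library left out, the log2 fold change ranged from -0.077 to 0.241 for Fabp5 and from -0.115 to 0.118 for Gpihbp1 between bmECs and mpECs, and from -0.085 to 0.15 for Fabp4 in the Lats2 comparison. In the libraries labelled Yap1/Taz iΔEC it ranged from -0.145 to 0.123 for Apoe, from -0.080 to 0.160 for Lpl, from -0.208 to 0.205 for Slc27a3 and from -0.136 to 0.077 for Yap1. Depth limits Slc27a3 and Fabp5 most.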
